A study of Mus musculus with 18 samples.

Results

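Mouse embryonic stem cells kept without leukaemia inhibitory factor (LIF) for 3 days with cyclosporin A (CsA), which inhibits calcineurin, were compared with cells kept without LIF for 1 day and without CsA. The question was whether the treated day 3 cells carried the expression pattern of an earlier untreated stage or one of their own. The comparison holds 4 of the 18 arrays of the series, the 2 titled "d3 -LIF +CsA" and the 2 titled "d1 -LIF", and they were chosen by their titles. All of these cells are of the CGR8 line (strain 129P2/Ola). The other arrays are again 2 for each group: CGR8 cells at days 0 and 3 of LIF withdrawal, at days 0 and 1 with CsA, and ideltaCnAES cells at days 0, 1 and 4 of withdrawal of Tc, which induces deltaCnA. The labels give neither the dose of CsA nor how long the cells had been in it at day 0. RNA was read on BeadChips of the Illumina Mouse-6 design, version 1.1.

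LIF acts through its receptor and the transcription factor STAT3 to hold mouse embryonic stem cells in a naive, self-renewing state. When LIF is taken away, naive factors such as Klf4 and Tbx3 go down, FGF signalling through ERK takes over, and genes of the early post-implantation epiblast such as Fgf5 and Pou3f1 come on. Calcineurin is a phosphatase switched on by calcium and calmodulin, and it lets NFAT transcription factors enter the nucleus. CsA binds cyclophilins, a family of peptidyl-prolyl isomerases, and the complex of drug and cyclophilin blocks calcineurin, so the drug touches cyclophilins as well as NFAT. deltaCnA is a shortened catalytic subunit of calcineurin that no longer needs calcium to be active.

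A level is given as normalized log2 intensity and a difference as CsA day 3 minus untreated day 1 on the log2 scale, with its standard error (n = 2 arrays per group). Intensities of different probes are not set against each other. A gene counts as called, higher or lower at a Benjamini-Hochberg adjusted p under 0.05 from a limma model of all 18 arrays. Probes detected at p under 0.05 on both arrays of at least 1 of the 2 groups gave 10099 genes, of which 1004 passed through only 1 of the groups. Mean intensity ran from 286.9 to 484 over the 18 arrays, and 40.43% to 44.07% of 46632 probes were detected. The stem cell markers Pou5f1, Sox2, Nanog and Sall4 were detected on all 4 arrays compared. Of 10 fibroblast genes, which would mark feeder cells, Col1a1, Col1a2, Col3a1, Lum, S100a4 and Postn were undetected on all 4, and the intensities of all 10 summed to 1116 and 1294 at untreated day 1 and to 1266 and 1802 at CsA day 3, most of it Fn1.

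The 4 genes chosen to mark the comparison gave different answers. Klf4, a naive pluripotency factor and LIF target, stood at 9.53 and 8.82 on the CsA day 3 arrays and 8.70 and 9.08 on the untreated day 1 arrays. The groups overlapped, the difference of 0.28 ± 0.17 was not called (adjusted p = 0.19), and its 95% interval of -0.07 to 0.64 lay within a 2-fold change. Klf4 means at untreated days 0, 1 and 3 were 10.78, 8.89 and 7.14, so the CsA day 3 mean of 9.17 lay between days 0 and 1 and next to day 1. Without CsA day 3 replicate 2 the Klf4 difference was called (0.64, adjusted p = 0.00440), and the dimmest of its 3 probes was called on all arrays (0.45, adjusted p = 0.0287 over probes).

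Fgf5, the growth factor that marks the primed epiblast, stood at 6.75 and 7.97 on the CsA day 3 arrays and 8.70 and 8.40 on the untreated day 1 arrays. Both CsA arrays were below both untreated arrays, at 2.28-fold lower (-1.19 ± 0.24, adjusted p = 0.000378). Untreated Fgf5 was not detected at day 0 and had a mean of 10.41 at day 3, so the CsA day 3 cells lay between untreated days 0 and 1. Fgf5 was nonetheless 4.03-fold higher at CsA day 3 than at CsA day 1 (2.01 ± 0.24, adjusted p = 2.8e-06). At day 1 its mean was 5.35 with CsA and 8.55 without.

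Pecam1, an adhesion molecule of endothelium that naive stem cells also carry, stood at 12.32 and 12.15 on the CsA day 3 arrays and 10.74 and 10.68 on the untreated day 1 arrays. It was 2.88-fold higher at CsA day 3 (1.52 ± 0.16, adjusted p = 1.39e-07). Its untreated means were 10.55, 10.71 and 9.25, so no untreated day reached the treated level. A probe of Pecam1 of middle brightness gave 1.51 and was called, while a dim one gave 0.27 and was not (adjusted p = 0.260 over probes). Egr1, an immediate early transcription factor, stood at 4.47 and 5.48 on the CsA day 3 arrays and 9.69 and 9.05 on the untreated day 1 arrays and was detected on 1 of 2 CsA day 3 arrays. It was at least 16.6-fold lower (adjusted p = 4.54e-11), and below all untreated means (10.03, 9.37 and 8.86). Among the 4, Klf4 and Fgf5 thus had levels within the span of the untreated course and Pecam1 and Egr1 had levels outside it.

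**Figure D1:**
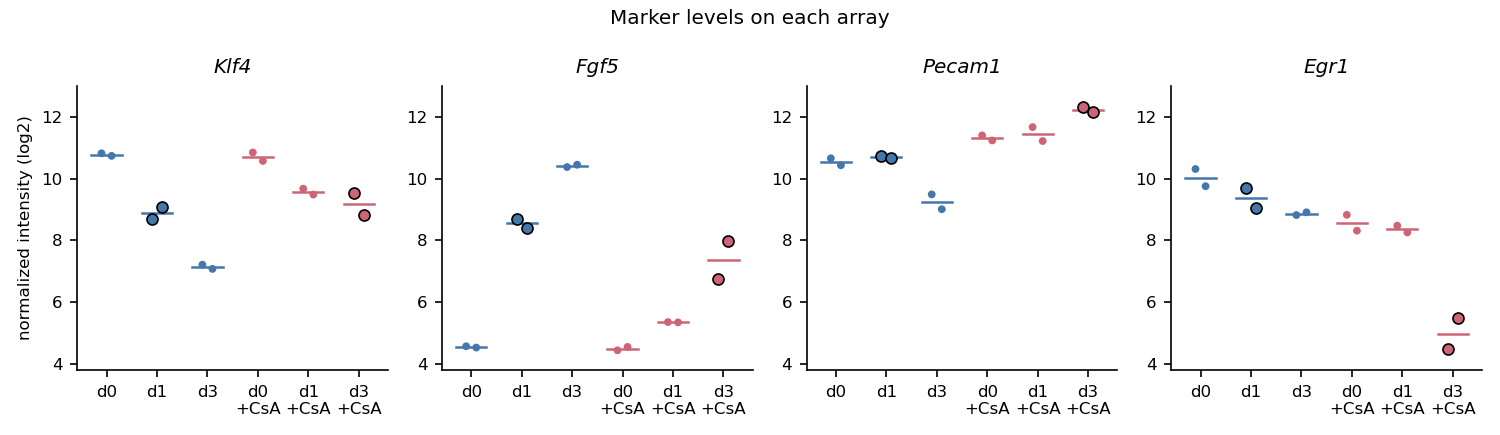
Normalized log2 intensity of Klf4, Fgf5, Pecam1 and Egr1 on each of the 12 CGR8 arrays, by day and treatment. Points are arrays (blue without CsA, red with CsA), lines are group means, and the 4 outlined points per panel are the arrays compared. Klf4 overlaps between the outlined groups, Fgf5 and Egr1 are lower with CsA and Pecam1 is higher.

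Across all genes, CsA day 3 and untreated day 1 differed widely. Of 10099 genes, 4426 (43.8%) were called, 2268 higher and 2158 lower (22.5% and 21.4%), and the difference reached 2-fold in 505 and 455 of these. The median over all genes was -0.01. Most differences were small: for 7749 genes (76.7%) the 95% interval lay within 2-fold, and 2137 of these were called as well. Scaling each array to its median in place of quantile normalization moved the split to 1893 higher and 1075 lower and the median of all genes to 0.09. In bulk RNA, fewer cells of a type and less RNA per cell cannot be told apart. The labels do not say that replicates came from separate cultures, so the p-values measure the spread between these arrays, which may be technical.

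The CsA day 3 arrays lay nearest to the other CsA arrays, not to an untreated day. They differed from CsA day 1 in 2630 genes (26%), with 12.9% of all genes higher and 13.1% lower at CsA day 3. From CsA day 0 they differed in 3170 (31.4%, with 16.2% higher and 15.2% lower). Against untreated cells the counts were 4019 (39.8%, with 20.6% higher and 19.2% lower) for day 3, 4426 for day 1 and 4672 (46.3%, with 22.9% higher and 23.4% lower) for day 0. These 5 comparisons share the CsA day 3 arrays. With either untreated day 1 array left out, fewer genes were called against day 1 than against day 3. A lone array gives a larger standard error, so that count does not rank the days. Array by array, the median size of the difference from a CsA day 3 array was 0.24 to 0.31 for CsA day 1, 0.26 to 0.33 for CsA day 0, 0.30 to 0.38 for untreated day 3, 0.33 to 0.39 for untreated day 1 and 0.36 to 0.42 for untreated day 0. The ranges of untreated days 3 and 1 overlapped, so this measure does not separate which of these days was nearer. Those of CsA days 0 and 1 also overlapped that of untreated day 3. Taken for each CsA day 3 array alone, every CsA array was nearer than any untreated one, by a small margin. The farthest CsA and nearest untreated arrays were at 0.33 and 0.34 from replicate 1, and at 0.29 and 0.30 from replicate 2. The CsA day 3 replicates differed from each other by 0.17, within the 0.12 to 0.18 of the 9 replicate pairs.

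**Figure D2:**
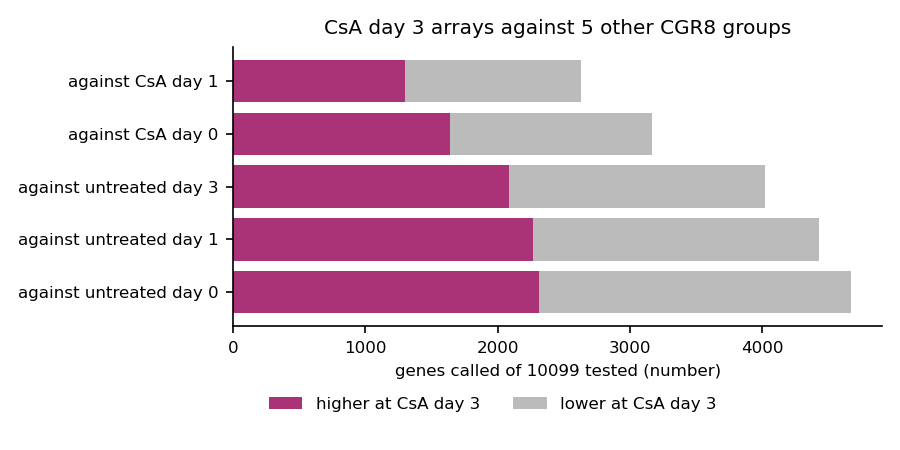
Number of genes called (adjusted p under 0.05, of 10099 tested) between the CsA day 3 arrays and each of the other 5 CGR8 groups, with genes higher and lower at CsA day 3 stacked. The count is lowest against CsA day 1 (2630) and highest against untreated day 0 (4672).

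The untreated course gives an axis on which the cells can be placed. Without CsA, 3933 genes (38.9%) differed between days 0 and 3, of which 1849 rose (18.3%) and 2084 fell (20.6%). That contrast shares no arrays with CsA day 3 against untreated day 1. Averaged over the risers, the untreated day 1 arrays had made 28.7% and 23.6% of the day 0 to day 3 change and the CsA day 3 arrays 55.6% and 61.4%. For the fallers the untreated day 1 arrays had made 32.6% and 26.1% and the CsA day 3 arrays 54.8% and 60.1%. On average the treated day 3 cells were thus farther along both axes than untreated day 1 cells, and the groups did not overlap. With CsA the arrays stood at 22.3% and 18.9% of the risers' change at day 1, next to the untreated day 1 values. For the fallers they stood at 24.9% and 24.4% at day 1. The CsA day 0 arrays were at 5.9% and 4.6% for the risers and 14.2% and 11.4% for the fallers. The ideltaCnAES day 0 arrays were at 9.2% and 7.2% for the risers, and at 26.3% and 32.4% for the fallers. A position on these axes thus does not measure days without LIF alone.

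**Figure D3:**
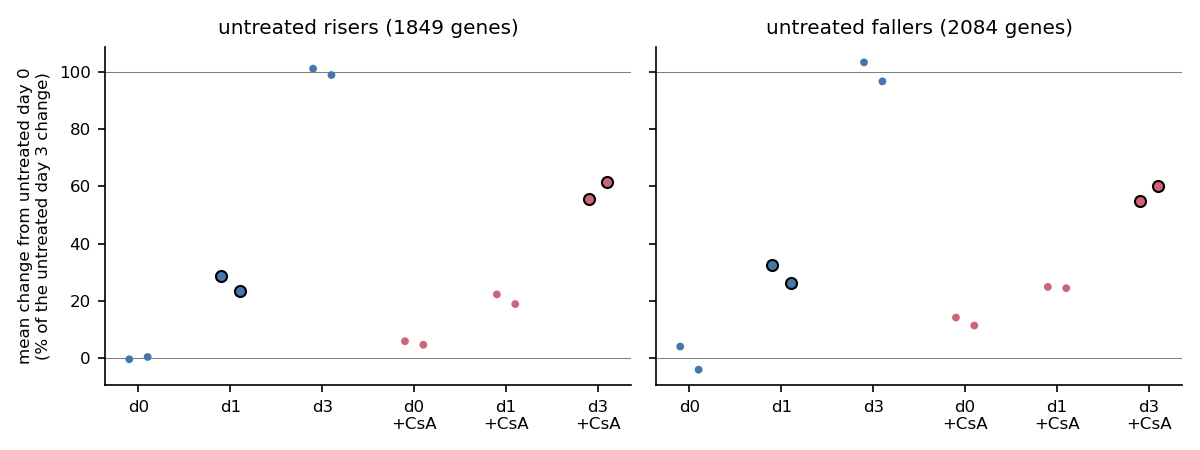
Mean change from the untreated day 0 mean, as a percentage of the untreated day 0 to day 3 change, over the 1849 genes that rose (left) and the 2084 that fell (right) without CsA. Points are arrays (blue without CsA, red with CsA, the 4 compared outlined), and the grey lines mark no change and the whole untreated change. The CsA day 3 arrays lie between 54.8% and 61.4%, above the untreated day 1 arrays at 23.6% to 32.6%.

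Single genes of the axis did not move by a common amount. Of the 1849 risers, 826 (44.7%) were higher at CsA day 3 than at untreated day 1, 218 (11.8%) were lower and 805 were not called, with a median of 0.32. Of the 2084 fallers, 840 (40.3%) were lower, 309 (14.8%) were higher and 935 were not called, with a median of -0.24. The shares over all genes were 22.5% higher and 21.4% lower. For 1185 risers and 1438 fallers the interval lay within 2-fold. Without CsA day 3 replicate 1 the fallers called higher numbered 184.

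The risers with the largest untreated change split both ways. Scarf2, a scavenger receptor gene, stood at 6.83 and 7.30 on the CsA day 3 arrays and 5.05 and 5.07 on the untreated day 1 arrays. It was undetected at untreated day 1 and at least 3.68-fold higher at CsA day 3 (adjusted p = 6.67e-07). Psmb8, an interferon-inducible proteasome subunit, stood at 7.39 and 7.96 on the CsA day 3 arrays and 5.91 and 5.84 on the untreated day 1 arrays (1.80 ± 0.20, adjusted p = 2.63e-07). Car4, a membrane-bound carbonic anhydrase, and Acta1, skeletal muscle actin, were higher as well (1.32 ± 0.23, and at least 1.91-fold with Acta1 undetected at untreated day 1). In all 4 the CsA day 3 arrays lay above both untreated day 1 arrays and below the untreated day 3 mean. Acta2, smooth muscle actin, went from 5.02 at untreated day 0 to 11.15 at day 3 and had a mean of 6.74 at CsA day 3. Its difference from day 1 was 0.85 ± 0.22 (adjusted p = 0.00299) and was not called without untreated day 1 replicate 2 (0.50, adjusted p = 0.118). Of the 8 risers with the largest change, Fgf5 and Pou3f1, both epiblast genes, were lower.

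Among the fallers with the largest change, 6 of 8 were lower at CsA day 3 than at untreated day 1. Khdc3, which encodes the oocyte and stem cell protein Filia, stood at 7.42 and 7.09 on the CsA day 3 arrays and 9.61 and 9.89 on the untreated day 1 arrays. That was 5.63-fold lower (-2.49 ± 0.16, adjusted p = 9.32e-11) against an untreated day 3 mean of 6.55. Myo1f, an unconventional myosin, had a level of 7.82 and 7.86 against 9.21 and 9.65 and was 3.01-fold lower (adjusted p = 1.48e-07). Mras, a small GTPase of the Ras family, was 1.96-fold lower (6.88 and 6.51 against 7.50 and 7.83, adjusted p = 9.13e-06). These genes had lost more of their expression by CsA day 3 than by untreated day 1. Of the others, 2210409E12Rik overlapped between the groups (9.95 and 9.08 against 9.33 and 9.67, difference 0.01 ± 0.19, adjusted p = 0.972) and Spats1 had a difference of -0.23 ± 0.17 (adjusted p = 0.286).

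Naive pluripotency genes went both ways. Of 18 tested, 6 were higher, 3 lower and 9 not called at CsA day 3, with a median of 0.21, against 22.5% higher and 21.4% lower among all genes. Higher besides Pecam1 were Tbx3 and Tfcp2l1, transcription factors that hold the naive state, and Fbxo15, Esrrb and Nanog. Tbx3 stood at 10.15 and 9.57 on the CsA day 3 arrays and 8.61 and 8.69 on the untreated day 1 arrays. It was 2.31-fold higher (1.21 ± 0.17, adjusted p = 3.69e-06), against untreated means of 10.04, 8.65 and 6.44 at days 0, 1 and 3. Tfcp2l1 stood at 12.86 and 12.42 against 11.88 and 11.63 (0.88 ± 0.12, adjusted p = 4.56e-06), and the Nanog difference was small (0.32 ± 0.11, adjusted p = 0.021). Both Tbx3 arrays lay above both untreated day 1 arrays. Gbx2, a homeobox factor downstream of LIF, went the other way at 8.74 and 8.99 on the CsA day 3 arrays and 11.10 and 11.24 on the untreated day 1 arrays. It was 4.94-fold lower (-2.31 ± 0.17, adjusted p = 6.86e-10) and below its untreated day 3 mean of 9.67. Tcl1, an AKT coactivator (-0.74, adjusted p = 0.000424), and Zfp42 (Rex1) (-0.52, adjusted p = 0.00118) were lower too, the latter not with median scaling (-0.42, adjusted p = 0.174).

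Primed and formative epiblast genes were lower. Of 12 tested, 8 were lower, 0 higher and 4 not called, with a median of -0.95. Among all genes 22.5% were higher and 21.4% lower. Pou3f1 (Oct6), a POU-domain transcription factor of the epiblast, stood at 8.48 and 9.94 on the CsA day 3 arrays and 11.04 and 10.45 on the untreated day 1 arrays and was 2.89-fold lower (-1.53 ± 0.33, adjusted p = 0.000564). Fgf15, a growth factor gene, stood at 5.78 and 6.62 against 7.95 and 8.09 and was 3.54-fold lower (adjusted p = 4.79e-07). Tcf15, a helix-loop-helix factor, was 2.97-fold lower (8.53 and 9.38 against 10.27 and 10.79), and Lef1, a nuclear partner of beta-catenin, 2.93-fold lower (6.14 and 6.66 against 8.31 and 7.60). Tcf15 was lower at day 3 without CsA too, with untreated means of 10.13, 10.53 and 9.21 at days 0, 1 and 3. Its CsA day 3 mean of 8.96 was not called against untreated day 3 (-0.26, adjusted p = 0.410). Zic2, Nodal and Dnmt3b were also lower (-1.27, -0.71 and -0.49). In each of the 8, including Fgf5, CsA day 3 replicate 1 had the lower of the treated levels, and both treated arrays lay below both untreated arrays. The groups did not overlap in 69.9% of all genes, and these 8 were picked as called, so the separation is a description. Otx2, an epiblast transcription factor that comes on early, was not called (-0.04 ± 0.20, 95% interval -0.45 to 0.37), and neither was Sall2 (-0.36 ± 0.24). The untreated Otx2 means were 10.09, 11.36 and 11.22, and CsA day 3 cells held 11.32. Zic2, Lef1, Dnmt3b and Fgf15 were also not called against untreated day 0 (differences -0.07, 0.28, 0.04 and -0.40).

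Most core pluripotency genes, which the naive and primed states share, were not called. Of 10 tested, 7 were not called, 3 were lower and 0 higher, with a median of -0.25. Among all genes 22.5% were higher and 21.4% lower. Pou5f1 (Oct4) stood at 12.83 and 12.72 against 12.87 and 13.12, with a 95% interval of -0.46 to 0.02 for the difference, and Sox2 at 10.47 and 10.23 against 10.36 and 10.35, with -0.26 to 0.25. Both intervals lay well within 2-fold. Lower were Dppa2, a chromatin protein of early embryos (-1.33 ± 0.19, adjusted p = 5.12e-06), Zscan10 (-0.80) and Trim28, a corepressor (-0.56). Of 11 LIF-STAT3 genes, 3 were higher, 1 lower and 7 not called, with a median of 0.27. These counts stand beside the same 22.5% higher and 21.4% lower among all genes. Icam1, an adhesion molecule, was 2.24-fold higher (11.44 and 11.31 against 10.23 and 10.19, adjusted p = 9.04e-08). Socs3, the feedback inhibitor that STAT3 induces, stood at 6.82 and 7.01 against 6.29 and 6.87, far below its untreated day 0 mean of 11.37, and was not called (adjusted p = 0.194). Stat3 itself was 1.34-fold higher (adjusted p = 0.00759) and Pim3 1.31-fold higher, calls that did not hold without CsA day 3 replicate 1 (0.38 and 0.35, adjusted p = 0.0564 and 0.0608), nor, for Stat3, without untreated day 1 replicate 2 (0.34, adjusted p = 0.0868). With median scaling neither was called (0.51 and 0.39, adjusted p = 0.0627 and 0.136).

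To separate an early state from a different one, genes beyond all 3 untreated days sampled were counted. At CsA day 3, 974 genes (9.64%) were higher than at untreated days 0, 1 and 3, and 954 (9.45%) were lower than at all 3. Of these, 123 and 116 lay more than 2-fold beyond the nearest untreated mean. The 3 comparisons behind each count share the CsA day 3 arrays, so they are not independent. Without CsA day 3 replicate 1 the counts were 577 and 563, and with median scaling 464 and 471. A further 434 genes (4.3%) were called against untreated days 0 and 3 and not against day 1. Of the 974, 364 were already called higher at CsA day 0 than at untreated day 0 and 5 lower. Of the 954, 368 were already lower there and 0 higher. Only 3 untreated days were sampled, so untreated levels between them are not known.

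Cox6a2 and Ddit3 lay farthest above the untreated course. Ddit3, which encodes the stress transcription factor CHOP, stood at 11.49 and 11.12 on the CsA day 3 arrays and 7.65 and 7.37 on the untreated day 1 arrays. The difference was 13.9-fold (3.79 ± 0.20, adjusted p = 6.59e-12), and the untreated means were 8.03, 7.51 and 8.77, so it lay 2.53 above the nearest of them. Cox6a2, the muscle form of a cytochrome c oxidase subunit, stood at 8.44 and 9.10 on the CsA day 3 arrays and 4.37 and 4.60 on the untreated day 1 arrays. It was undetected on both untreated day 1 arrays and at least 3.58 higher on the log2 scale (adjusted p = 4.15e-08). Both genes were already above their untreated CGR8 counterpart at CsA day 0, with means of 9.65 and 7.03. In ideltaCnAES cells, whose labels name no CsA, Ddit3 means were 9.61, 7.56 and 10.06 at days 0, 1 and 4. A Ddit3 level like that of CsA day 0 was thus also found in cells not labelled with CsA. The Cox6a2 means of the ideltaCnAES cells all lay below its CsA day 0 mean. Ovgp1, the oviductal glycoprotein gene, stood at 8.67 and 8.09 against 5.95 and 5.54, at 2.14 above its nearest untreated mean. Tmem117, which encodes a membrane protein, had a mean of 7.85, 2.03 above the nearest untreated mean, and Pcnp, a nuclear protein gene, a mean of 8.16, 1.95 above it. In all of them the CsA arrays lay above every untreated array. Ubap1l, Zc3h6 and Pramel31 were of the same kind, at 5.07-fold, at least 4.53-fold and at least 5.58-fold higher than at untreated day 1. Pramel31 belongs to a family of close copies, so its probe may read more than 1 gene.

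Below the untreated course, Egr1 was followed by Etv2, an ETS factor that specifies blood and endothelium. Etv2 stood at 5.71 and 6.25 on the CsA day 3 arrays and 8.02 and 8.35 on the untreated day 1 arrays. It was 4.61-fold lower (-2.21 ± 0.19, adjusted p = 7.4e-09), and its untreated means were 8.49, 8.19 and 9.68. Edn1, the endothelin-1 gene, stood at 5.79 and 5.89 against 7.99 and 8.08 and was 4.58-fold lower (adjusted p = 3.2e-09). Ddah1, an enzyme that breaks down methylarginines, stood at 7.93 and 7.90 against 9.76 and 10.02 (-1.97 ± 0.14). Pes1, a ribosome assembly factor, stood at 7.72 and 8.55 against 10.03 and 10.26 (-2.01 ± 0.21), and Arvcf, a catenin of cell junctions, at 5.01 and 5.25 against 7.07 and 6.80 (at least 3.31-fold lower, detected on 1 of 2 CsA arrays). The groups did not overlap in any of these. Prmt6, an arginine methyltransferase, was 3.97-fold lower by its brightest probe and a second one gave -1.89, while a dim probe was higher (0.60, adjusted p = 0.0112 over probes). H4f16, a histone H4 gene, was at least 3.34-fold lower (4.92 and 5.40 against 7.01 and 7.02), and its close copies may share the probe.

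**Figure D4:**
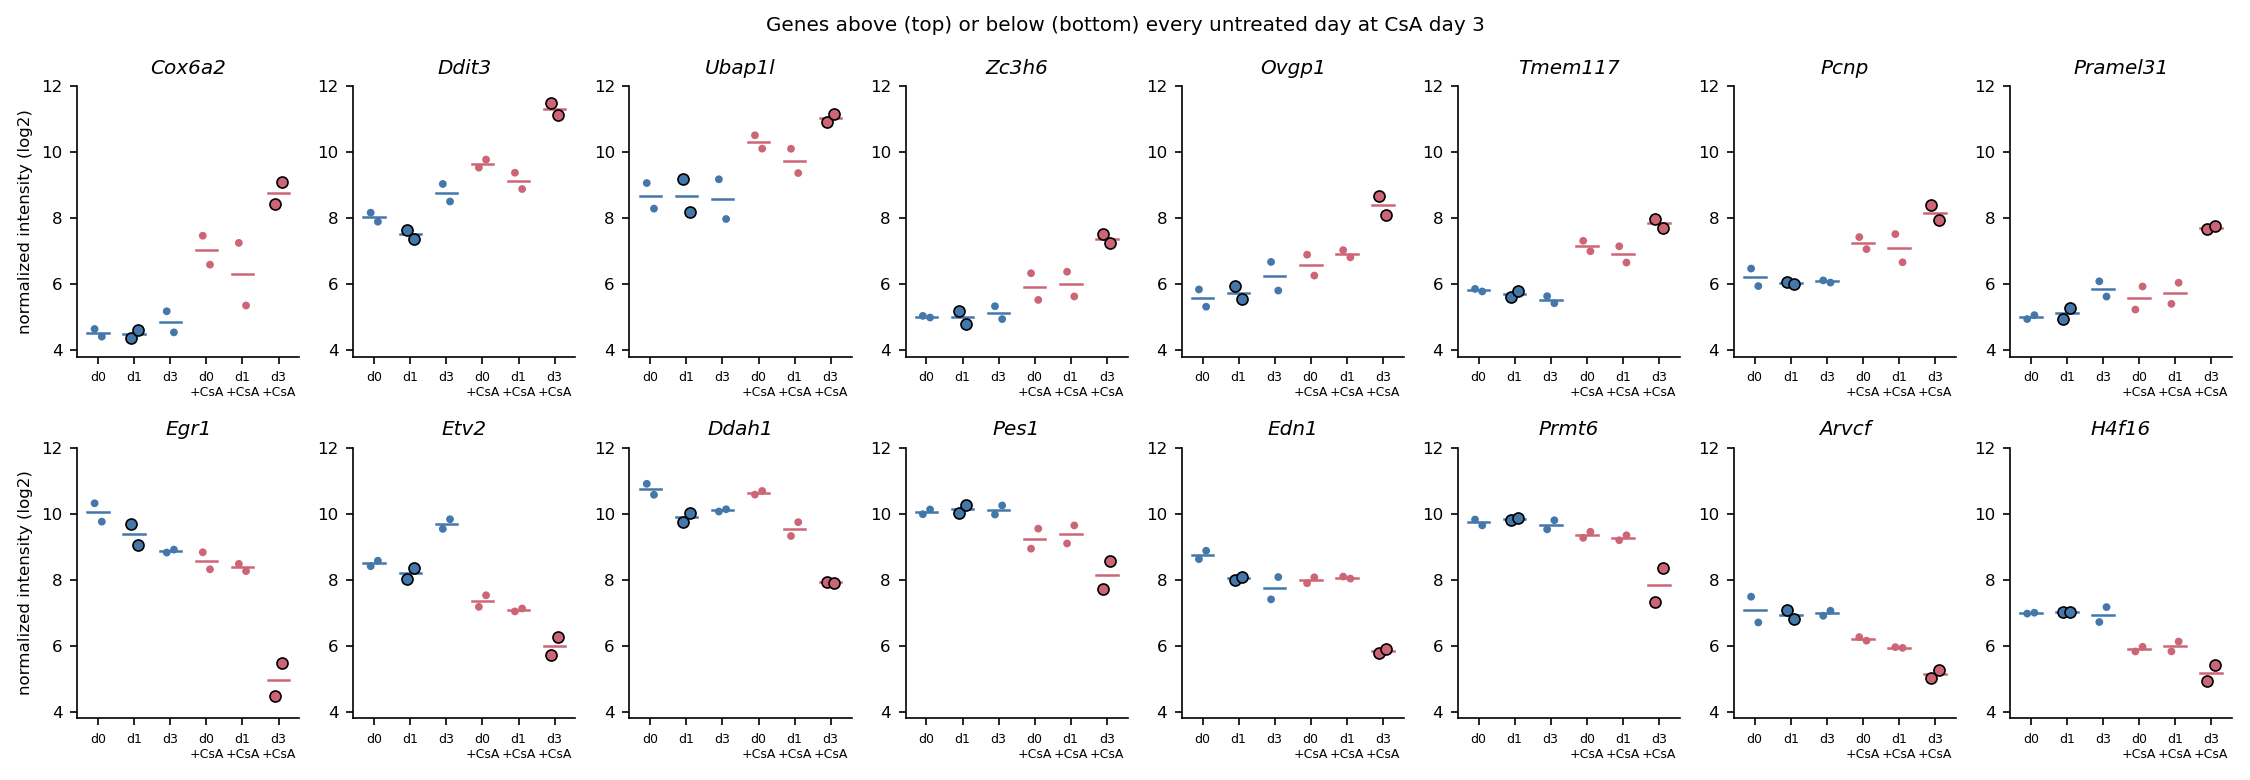
Normalized log2 intensity on each of the 12 CGR8 arrays for the 8 genes farthest above (top) and the 8 farthest below (bottom) every untreated group mean at CsA day 3. Points are arrays (blue without CsA, red with CsA), lines are group means, and the arrays compared are outlined. Egr1 falls to 4.47 and 5.48 at CsA day 3, and Ddit3 reaches 11.49 and 11.12.

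The most uniform group outside the untreated course was that of endoplasmic reticulum (ER) chaperones and of ER-associated degradation, which fold secreted proteins or remove those that fail. When unfolded protein collects in the ER, the sensors ATF6, IRE1 and PERK raise such genes, ATF6 and the IRE1 product XBP1 through ER stress elements in their promoters. Of 17 tested, 15 were higher, 1 lower and 1 not called, with a median of 0.93, and all 15 were also above every untreated day. Over all genes 22.5% were higher, 21.4% lower and 9.64% above every untreated day. Hspa5, among the 15, passed the detection filter only through CsA day 3, where it is high. Hyou1, a large ER chaperone, stood at 8.49 and 8.40 on the CsA day 3 arrays and 6.54 and 7.08 on the untreated day 1 arrays. It was 3.11-fold higher (1.64 ± 0.18, adjusted p = 2.41e-07). Hsp90b1, the ER form of HSP90, stood at 12.70 and 12.55 against 11.45 and 11.37 (1.22 ± 0.11, adjusted p = 9.12e-09). Hspa5 (BiP), the main ER chaperone, stood at 6.23 and 6.34 against 5.21 and 5.03, and was at least 2.11-fold higher, detected on 1 of 2 untreated day 1 arrays. For each of the 15 the lower CsA array lay above the higher untreated array. The groups did not overlap in 69.9% of all genes, and these 15 were picked as called, so the separation is a description.

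The disulphide isomerases Pdia4, Pdia6, P4hb and Pdia3 were higher by 1.25, 0.93, 0.91 and 0.89. Of the degradation machinery, Sel1l and Syvn1, the core of the HRD1 ubiquitin ligase, were higher by 1.23 and 0.93 and Derl3 by 1.22, while Derl2 was lower (-0.60 ± 0.16, adjusted p = 0.00392). With median scaling, or without CsA day 3 replicate 1, 0 members were lower. Xbp1 stood at 12.33 and 12.65 against 11.85 and 11.61 (0.76 ± 0.14, adjusted p = 0.000103). Herpud1, another ER degradation factor, was not called (0.38 ± 0.21, adjusted p = 0.146). Hyou1, Hsp90b1 and Xbp1 were already called higher at CsA day 0 than at untreated day 0. Their CsA day 0 means were 8.07, 12.13 and 12.48, against 7.06, 11.39 and 11.38 without CsA.

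The promoters of these genes, 250 bases before to 50 after the start from RefSeq (GRCm38.p6), were searched on both strands for the ER stress element, CCAAT followed by 9 bases of any kind and CCACG. It lies in 9 of 20 promoters found for the list (45%) and in 7 of the 15 found for its called members (46.7%), against 37 of 27025 promoters in the table (0.137%). A match is a description and no evidence of binding. The 4 promoters below belong to members that were higher, run 5′ to 3′ in the direction of the gene, and carry the element in capitals. In Derl3 and Creld2 it lies on the opposite strand, in Hspa5 on the strand of the gene, and Hsp90b1 holds one on each. Derl3 is at chr10:75893148-75893447, plus strand, Hsp90b1 at chr10:86705395-86705694, minus strand, Hspa5 at chr2:34771840-34772139, plus strand and Creld2 at chr15:88819396-88819695, plus strand.
Derl3: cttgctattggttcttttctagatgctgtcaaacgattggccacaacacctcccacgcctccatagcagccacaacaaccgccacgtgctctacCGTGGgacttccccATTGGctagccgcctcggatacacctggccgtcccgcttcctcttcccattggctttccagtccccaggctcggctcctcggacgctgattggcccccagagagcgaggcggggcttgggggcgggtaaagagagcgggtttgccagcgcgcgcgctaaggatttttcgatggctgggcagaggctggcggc
Hsp90b1: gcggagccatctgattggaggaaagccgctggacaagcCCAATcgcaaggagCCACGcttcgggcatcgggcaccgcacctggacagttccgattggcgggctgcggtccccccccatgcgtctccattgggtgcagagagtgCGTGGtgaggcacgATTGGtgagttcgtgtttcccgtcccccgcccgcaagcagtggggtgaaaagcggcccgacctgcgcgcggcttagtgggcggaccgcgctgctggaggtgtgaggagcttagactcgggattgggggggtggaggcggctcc
Hspa5: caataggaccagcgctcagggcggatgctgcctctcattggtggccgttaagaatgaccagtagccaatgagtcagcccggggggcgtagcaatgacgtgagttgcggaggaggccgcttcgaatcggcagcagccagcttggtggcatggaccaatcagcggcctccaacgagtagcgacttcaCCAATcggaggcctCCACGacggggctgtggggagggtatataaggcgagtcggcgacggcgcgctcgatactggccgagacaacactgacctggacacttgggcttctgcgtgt
Creld2: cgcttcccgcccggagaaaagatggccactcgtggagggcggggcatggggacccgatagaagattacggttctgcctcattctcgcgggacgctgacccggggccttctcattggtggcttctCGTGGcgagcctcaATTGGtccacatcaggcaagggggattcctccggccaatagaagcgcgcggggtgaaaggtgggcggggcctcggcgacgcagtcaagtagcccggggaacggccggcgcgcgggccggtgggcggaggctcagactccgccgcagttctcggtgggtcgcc

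Beside these sequences stand the levels of the 4 genes. Derl3 stood at 7.77 and 7.82 against 6.45 and 6.69 (1.22 ± 0.25, adjusted p = 0.000305) and Creld2, an ER protein that is secreted under stress, at 12.24 and 12.41 against 11.04 and 11.39 (1.11 ± 0.12, adjusted p = 1.3e-07). Hsp90b1, with 2 elements, differed by 1.22, and Hspa5 by at least 1.08 on the log2 scale. Other members of the list were higher without the element in this window.

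Genes of the integrated stress response, which ATF4 and CHOP drive when PERK or another kinase slows translation, were higher too. Of 19 tested, 12 were higher, 0 lower and 7 not called, with a median of 0.67, and 6 of the 12 were above every untreated day. The shares over all genes were 22.5% higher, 21.4% lower and 9.64% above every untreated day. Atf3 and Slc3a2, among the 12, passed the detection filter only through CsA day 3. Atf3 was lower at CsA day 3 than at untreated day 3 (means of 5.37 and 6.16, -0.79, adjusted p = 0.0115). Its call against untreated day 1 did not hold without untreated day 1 replicate 2 or without CsA day 3 replicate 1. Besides Ddit3, Nupr1, a small stress-induced chromatin protein, stood at 12.65 and 12.46 on the CsA day 3 arrays and 10.41 and 9.85 on the untreated day 1 arrays. It was 5.36-fold higher (2.42 ± 0.44, adjusted p = 0.000116). Trib3, a pseudokinase that CHOP induces, stood at 10.77 and 10.97 against 9.59 and 9.25 (1.45 ± 0.23, adjusted p = 1.74e-05), and Cebpb, a bZIP partner of CHOP, at 9.38 and 9.50 against 8.13 and 7.85 (1.45 ± 0.19, adjusted p = 1.81e-06). Atf5, another bZIP factor, was 3.08-fold higher, Ddit4, an inhibitor of mTOR signalling, 2.74-fold, and Vldlr, a lipoprotein receptor, 5.49-fold. The groups did not overlap in any of these. Vldlr and Ddit4 stood at untreated day 3 levels (8.99 against 8.90, and 6.76 against 6.59), neither called against that day. Asns, Psat1 and Slc7a5, which make or import amino acids, were higher by 0.79, 0.65 and 0.67. Atf4 itself was not called (0.61 ± 0.25, adjusted p = 0.0541), and neither was Chac1, a glutathione-degrading target of the same pathway (-0.15 ± 0.41, adjusted p = 0.801).

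The CARE motif TTGCATCA, to which ATF4 and its partners bind, lies in 5 of 18 promoters of the list (27.8%), against 1.03% of all promoters in the table. Among the 11 promoters found for called members 3 carry it (27.3%), no larger a share than in the whole list. These are Vldlr, Nupr1 and Atf3, and Nupr1 is printed as an example. Its promoter is at chr7:126625421-126625720, minus strand, with the motif in capitals on the strand of the gene.
Nupr1: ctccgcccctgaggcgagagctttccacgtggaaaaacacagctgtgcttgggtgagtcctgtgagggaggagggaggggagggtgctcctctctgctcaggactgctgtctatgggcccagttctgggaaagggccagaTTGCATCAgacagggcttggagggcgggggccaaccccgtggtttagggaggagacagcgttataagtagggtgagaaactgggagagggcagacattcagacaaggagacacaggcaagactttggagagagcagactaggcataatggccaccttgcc

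Genes that report ERK signalling were mostly lower. Among all genes 22.5% were higher and 21.4% lower. Of 12 ERK feedback genes, 7 were lower, 3 higher and 2 not called, with a median of -0.51. With median scaling 4 were lower, and without CsA day 3 replicate 1, 3. Spry4, an inhibitor of receptor tyrosine kinase signalling, stood at 6.57 and 7.95 on the CsA day 3 arrays and 9.49 and 9.49 on the untreated day 1 arrays. It was 4.69-fold lower (-2.23 ± 0.27, adjusted p = 6.06e-07). Etv4, an ETS factor induced by FGF, stood at 6.72 and 6.71 against 8.58 and 8.90 and was 4.07-fold lower (adjusted p = 1.13e-07). Ccnd1, the cyclin that ERK induces, stood at 10.67 and 10.65 against 11.53 and 11.78 (-0.99 ± 0.11, adjusted p = 2.58e-07), and 4 dimmer probes of it were lower as well. Dusp6, a phosphatase that acts on ERK, was lower (7.61 and 8.89 against 9.13 and 9.30, -0.96 ± 0.25), but not without CsA day 3 replicate 1 (-0.32, adjusted p = 0.226). The other way, Dusp5 and Dusp1, phosphatases of the same family, were higher by 0.80 and 0.64. Both Spry4 and Dusp6 had a lower level on CsA day 3 replicate 1 than on replicate 2. Without CsA, Spry4 also fell, with means of 10.22, 9.49 and 8.45 at days 0, 1 and 3, and Etv4 likewise (9.57, 8.74 and 7.65). Untreated Ccnd1 means were 11.38, 11.65 and 11.04, while Dusp6 rose (9.01, 9.21 and 10.21). Of the 12 genes, 6 lay below every untreated day at CsA day 3, against 9.45% of all genes.

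Of 9 immediate early genes detected, 4 were lower, 2 higher and 3 not called, with a median of -0.41. These counts stand beside 22.5% higher and 21.4% lower among all genes. Of the 6 called, Egr1 and Myc passed the detection filter only through untreated day 1 and Atf3 only through CsA day 3, in each case the group where the gene is high, so the counts are a description. Without untreated day 1 replicate 2, or without CsA day 3 replicate 1, 1 was higher. Fos, Jun and 7 others did not pass the detection filter. Myc stood at 4.64 and 5.59 against 6.93 and 7.40, was detected on 1 of 2 CsA day 3 arrays and was at least 3.47-fold lower (adjusted p = 1.67e-06). Ier3, an early survival gene, was 2.55-fold lower (6.41 and 6.73 against 7.84 and 7.99), while Klf6, a zinc-finger factor, was higher (11.61 and 11.74 against 11.12 and 11.02, 0.60 ± 0.10, adjusted p = 6.33e-05). Thus Egr1, Myc and Ier3 lay below every untreated day, and Klf6 lay between untreated days 1 and 3.

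Serum response factor drives many genes of actin and contractility. Of 14 tested, 7 were lower, 2 higher and 5 not called, with a median of -0.35. The shares over all genes were 22.5% higher and 21.4% lower. Lower were Myl12a, a myosin light chain (7.17 and 7.24 against 8.64 and 8.77, -1.49 ± 0.17, adjusted p = 4.7e-07), Ccn2, a matricellular factor (-1.37 ± 0.18), Cnn2, calponin 2 (-1.22 ± 0.19), Pdlim1 (-0.95) and Tpm1, a tropomyosin (-0.68). The higher members were Acta1 and Acta2, both risers described above. Acta1 passed the detection filter only through CsA day 3. In untreated cells Cnn2 and Tpm1 were higher at day 3 (10.09 and 11.76) than at day 1 (8.88 and 9.64), and the CsA day 3 means were 7.66 and 8.96. The CArG box that serum response factor binds lies in 6 of 20 promoters of the list (30%), those of Acta1, Cnn2 and Vcl among them, against 1.81% of all promoters in the table.

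Lineage genes did not move as a block. Of 7 primitive endoderm genes, 5 were higher and 0 lower, with a median of 0.66. Among all genes 22.5% were higher and 21.4% lower. Gata6, among the 5, passed the detection filter only through CsA day 3. The basement membrane collagens Col4a1 and Col4a2, which share a promoter region, were higher by 1.32 ± 0.21 and 1.26 ± 0.17 (9.92 and 9.37 against 8.21 and 8.44 for Col4a1, adjusted p = 2.26e-05). Gata6, a zinc-finger factor of the endoderm, stood at 6.05 and 5.81 against 4.63 and 4.54, was undetected at untreated day 1 and was at least 1.68-fold higher (adjusted p = 1.72e-05), and Gata4 was higher by 0.66. Col4a1, Col4a2 and Gata6 were also higher than at untreated days 0 and 3, whereas Gata4 was not called against day 3 (adjusted p = 0.0696). Lamc1, a laminin chain, was higher (0.28 ± 0.11, adjusted p = 0.0485), and leaving out any 1 array other than CsA day 3 replicate 2 ended that call (0.16 to 0.31, adjusted p = 0.0911 to 0.390).

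Of 11 epithelial genes, 6 were higher, 0 lower and 5 not called, with a median of 0.63. The shares over all genes were 22.5% higher and 21.4% lower. Cldn7, among the 6, passed the detection filter only through CsA day 3. Krt18, a keratin of simple epithelia, stood at 9.29 and 9.24 on the CsA day 3 arrays and 7.30 and 7.10 on the untreated day 1 arrays. It was 4.18-fold higher (2.06 ± 0.18, adjusted p = 7.91e-09). Cldn7 and Cldn4, tight junction claudins, were at least 3.26-fold and 2.11-fold higher, Cldn7 being undetected at untreated day 1. Tjp3, a junction scaffold, was 2.85-fold higher (8.75 and 8.34 against 7.27 and 6.81). Cdh1 (E-cadherin) overlapped between the groups (9.69 and 9.13 against 9.22 and 8.77, adjusted p = 0.187), and Krt8, the partner of Krt18, was not called (adjusted p = 0.145). The untreated Krt18, Cldn7 and Cldn4 means were higher at day 3 (9.65, 8.32 and 11.52) than at day 1 (7.20, 5.09 and 10.42).

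Among 5 trophectoderm genes, Krt18 and Tfap2c were higher, 0 were lower, and Cdx2 was not called (-0.19 ± 0.20), with a median of 0.41. Tfap2c, the AP-2 gamma factor of trophoblast and germ cells, stood at 11.84 and 11.27 on the CsA day 3 arrays and 9.28 and 8.63 on the untreated day 1 arrays. It was 6.04-fold higher (2.60 ± 0.22, adjusted p = 5.53e-09) and both of its other probes pointed the same way (2.06 and 2.21). Of 6 mesendoderm genes, 3 were lower and 1 higher. For this list and the trophectoderm genes, the shares over all genes were 22.5% higher and 21.4% lower. Fgf8, among the 3, passed the detection filter only through untreated day 1. Lefty2, a secreted Nodal antagonist, stood at 9.08 and 10.37 against 11.52 and 11.12 and was 3.02-fold lower (adjusted p = 0.000112). Lefty1 was 2.47-fold lower (10.81 and 11.97 against 12.98 and 12.42), but not without CsA day 3 replicate 1 (-0.73, adjusted p = 0.0680), and without that array 1 mesendoderm gene was lower. Fgf8, a growth factor of the primitive streak, was at least 1.78-fold lower (adjusted p = 0.00717), but not without untreated day 1 replicate 1 (-0.66, adjusted p = 0.129) or CsA day 3 replicate 1 (-0.65, 0.140). Gsc, a homeobox gene of the organizer, was higher (0.77 ± 0.21), but not without untreated day 1 replicate 1 (0.59, adjusted p = 0.0771). Mixl1, Foxa2 and Mesp1 did not pass the detection filter.

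Of 7 blood and endothelial genes, Etv2 and Cd34 were lower, Hhex was higher and Tal1, Kdr, Tek and Lmo2 were not called. Of 6 mesoderm genes, Tbx6 (1.11 ± 0.18, adjusted p = 2.57e-05) and Twist1 were higher and Bmp4 (-1.33 ± 0.22, adjusted p = 4.32e-05) and Vim lower. Both lists stand beside 22.5% higher and 21.4% lower among all genes. The calls of Cd34, Hhex, Twist1 and Vim were lost under at least 1 alternative, and without CsA day 3 replicate 1 neither Hhex (0.54, adjusted p = 0.167) nor Cd34 (-0.40, 0.243) nor Twist1 (0.43, 0.111) was called. Without untreated day 1 replicate 1, Hhex (0.20, adjusted p = 0.568) and Twist1 (0.36, 0.162) were not called, and without untreated day 1 replicate 2, Cd34 (-0.33, 0.331) and Vim (-0.47, 0.0501) were not. Hhex was not called without CsA day 3 replicate 2 either (0.67, 0.0772). Of 4 neuroectoderm genes, Pax6, Map2, Tubb3 and Ncam1, 0 were called, and 1 was lower without CsA day 3 replicate 1. Of the 4 fibroblast genes that passed the filter, Dcn, a proteoglycan gene, was lower at CsA day 3 (5.58 and 5.72 against 6.77 and 6.26, -0.87 ± 0.18, adjusted p = 0.000503). Thy1 was lower and Fn1 higher (-0.59 and 0.52), and neither call held in every alternative. For Fn1 the values were 0.37 without untreated day 1 replicate 2 (adjusted p = 0.159) and 0.24 without CsA day 3 replicate 1 (0.317). For Thy1 they were -0.40 without untreated day 1 replicate 2 (0.241) and -0.47 without CsA day 3 replicate 2 (0.164). The part of such cells in the other results was not tested.

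**Figure D5:**
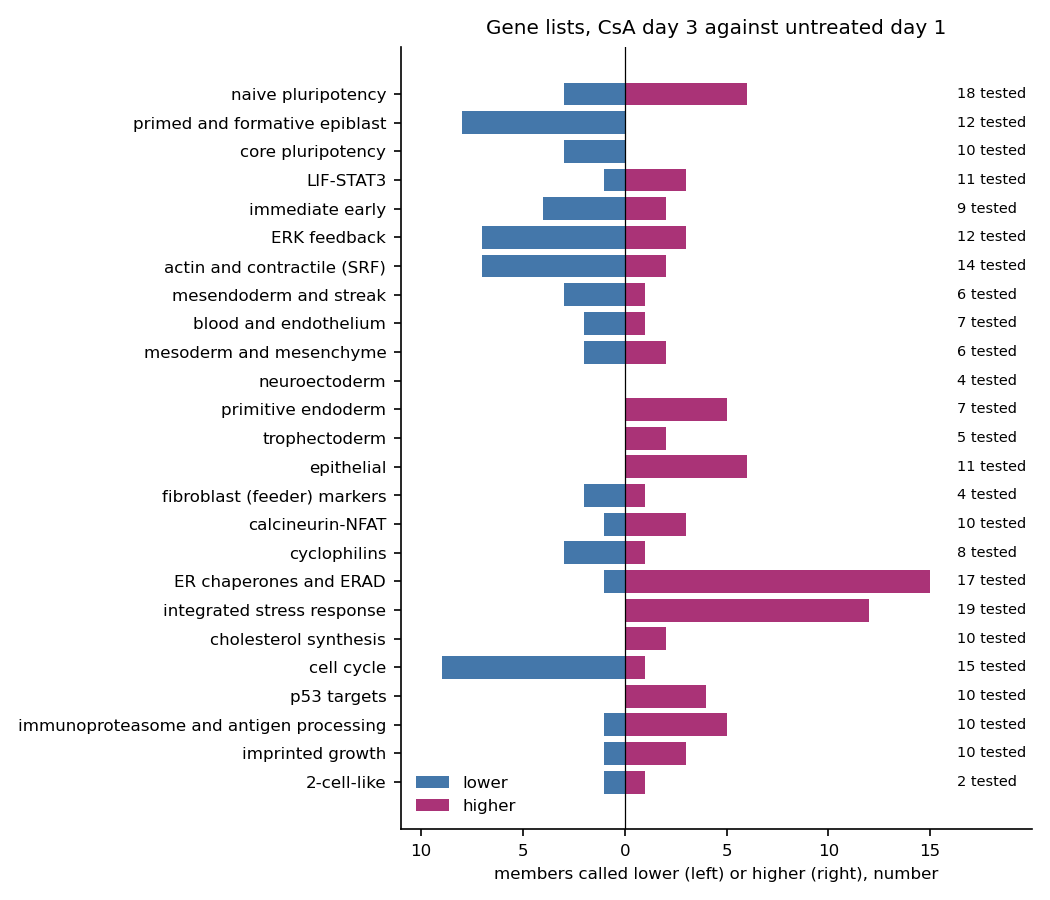
Number of members of each of 25 gene lists called lower (left, blue) or higher (right, purple) at CsA day 3 against untreated day 1, with the number tested at the right edge. ER chaperones (15 of 17 higher) and stress response genes (12 of 19 higher) extend farthest to the right, and cell cycle (9 of 15 lower) and primed epiblast genes (8 of 12 lower) farthest to the left. Across all genes 22.5% were higher and 21.4% lower.

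Cell cycle genes were lower. Of 15 tested, 9 were lower, 1 higher and 5 not called, with a median of -0.54, and 7 were below every untreated day. Over all genes 21.4% were lower, 22.5% higher and 9.45% below every untreated day. Ccne1, cyclin E1, which drives entry into S phase, stood at 8.83 and 9.05 on the CsA day 3 arrays and 10.48 and 10.95 on the untreated day 1 arrays. It was 3.42-fold lower (-1.78 ± 0.16, adjusted p = 1.73e-08), and a dimmer probe gave -2.14. Ccno was 4.53-fold lower (8.66 and 8.63 against 10.86 and 10.79), Ccnd3 2.13-fold and the mitotic kinase genes Aurkb and Plk1 1.75-fold and 1.57-fold. Cdk1 and Mcm2, a kinase of mitotic entry and a subunit of the replicative helicase, were lower, with differences of -0.54 and -0.61. Cdkn1a (p21), an inhibitor of cyclin-dependent kinases, was the only higher member (0.46 ± 0.15, adjusted p = 0.0154), and lost its call with median scaling (0.54, adjusted p = 0.0660), without untreated day 1 replicate 2 (0.37, 0.137) and without CsA day 3 replicate 1 (0.25, 0.284).

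Among the direct partners of the drug, Ppia (cyclophilin A), its main intracellular receptor, stood at 14.49 and 14.48 against 14.61 and 14.64, with a 95% interval of -0.33 to 0.04. Of 8 cyclophilin genes, 3 were lower, 1 higher and 4 not called, with a median of -0.19. Ppil1, a cyclophilin of the spliceosome, was 2.16-fold lower (10.04 and 10.26 against 11.16 and 11.36, adjusted p = 6.15e-07). Ppib, the cyclophilin of the ER, was higher (0.42 ± 0.12, adjusted p = 0.0086) and was not called without untreated day 1 replicate 2 (0.35, adjusted p = 0.0855), without CsA day 3 replicate 1 (0.34, 0.0886) or with median scaling (0.46, 0.108). Without CsA day 3 replicate 1, 1 member was lower and 0 higher. Of 10 calcineurin-NFAT genes, 3 were higher, 1 lower and 6 not called, with a median of 0.23, and 0 were lower without untreated day 1 replicate 2, without CsA day 3 replicate 1 or with median scaling. Over all genes 22.5% were higher and 21.4% lower. Nfatc4 was 2.42-fold higher (10.12 and 10.14 against 8.97 and 8.74, adjusted p = 5.34e-07), at the level of untreated day 3 (10.08). Rcan1, the calcineurin inhibitor that NFAT induces, was not called (9.50 and 9.57 against 9.29 and 9.40, 0.19 ± 0.13, adjusted p = 0.258). Rcan3 was higher by its brightest probe (0.88 ± 0.12) and lower by 2 dimmer ones (-0.66 and -0.83), so its direction is unsettled.

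The genes with the largest differences held few pluripotency factors. After Ddit3 and Cox6a2, the highest was Arhgef2, a microtubule-bound activator of RhoA, at 10.76 and 10.88 on the CsA day 3 arrays and 7.89 and 7.80 on the untreated day 1 arrays. It was 7.86-fold higher (2.97 ± 0.14, adjusted p = 1.37e-12), and its 2 other probes gave 1.35 and 2.03. Serpinh1 (HSP47), the collagen chaperone of the ER, stood at 11.45 and 11.53 against 9.09 and 8.95 and was 5.54-fold higher. Retreg1, a receptor that feeds ER membrane to autophagy, stood at 10.34 and 10.32 against 7.95 and 7.69 and was 5.69-fold higher. Camk2n1, an inhibitor of the calcium and calmodulin kinase CaMKII, was 5.56-fold higher (9.83 and 8.65 against 7.02 and 6.51). Enpp5, N4bp2l1, Ovgp1 and Got1l1 were higher by 2.70, 2.69, 2.64 and 2.49. The groups did not overlap in these genes, as the rule for naming them required. Arhgef2, Serpinh1 and Retreg1 also rose without CsA, from means of 7.84, 9.02 and 7.82 at day 1 to 9.31, 10.99 and 8.88 at day 3. Their CsA day 3 means were 10.82, 11.49 and 10.33. Enpp5, N4bp2l1 and Got1l1 rose without CsA as well (7.69, 7.31 and 9.89 at day 3), while Camk2n1 did not (6.76 and 6.35 at days 1 and 3).

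On the lower side, S100a6, a calcium-binding protein, followed Egr1 at 9.88 and 9.25 on the CsA day 3 arrays and 12.79 and 12.49 on the untreated day 1 arrays. It was 8.42-fold lower (-3.07 ± 0.17, adjusted p = 2.09e-11) and below its untreated day 3 mean of 10.63. Spink1, a secreted protease inhibitor, was 7.91-fold lower (6.66 and 7.31 against 9.70 and 10.22), near its untreated day 3 mean of 7.37. Smyd1, a muscle methyltransferase, was 7.30-fold lower by its brightest probe, while a dim probe was not called (-0.16, adjusted p = 0.650 over probes). Tgm1, a transglutaminase, was lower (-2.48), Aire, known for self-antigen display in the thymus, was 5.27-fold lower, and Irgm1, an interferon-inducible GTPase, was 5.13-fold lower. Ntn1, the guidance cue netrin-1, was 4.97-fold lower (5.67 and 5.46 against 7.79 and 7.97), again near its untreated day 3 mean of 5.67. Enox1, Cabs1, Khdc3 and Klhl25 made up the rest, at -2.70, -2.57, -2.49 and -2.40. Smyd1, Aire and Cabs1 also fell without CsA, to 5.58, 8.61 and 5.98 at untreated day 3. Their CsA day 3 means were 5.30, 8.33 and 6.72. Enox1, Tgm1 and Klhl25 fell without CsA too (8.64, 7.69 and 6.99 at day 3) and were lower still at CsA day 3 (7.82, 7.05 and 5.54). Irgm1 went from 5.64 at untreated day 0 to 8.08 at day 1 and 8.14 at day 3, while CsA day 3 cells held 5.72.

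Many of these genes also differed at CsA day 0, before LIF was withdrawn. CsA day 0 against untreated day 0, a contrast that shares no arrays with the main one, called 1466 genes (14.5%), 687 higher (6.8%) and 779 lower (7.71%). Of the 687, 561 (81.7%) were higher at CsA day 3 than at untreated day 1 and 3 were lower, with a median of 0.72. Of the 779, 593 (76.1%) were lower and 11 higher, with a median of -0.73. Over all genes 22.5% were higher and 21.4% lower. The 561 make up 24.7% of the 2268 genes higher at CsA day 3, and the 593 make up 27.5% of the 2158 lower.

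The day 0 genes with the largest differences kept their direction. Higher at CsA day 0 were Cox6a2, Ubap1l and Ddit3, described above, Bhlha15, a factor of secretory cells, and Snhg11, a noncoding host transcript of small nucleolar RNAs. Snhg11 stood at 10.61 and 10.48 on the CsA day 3 arrays and 8.62 and 8.55 on the untreated day 1 arrays (1.96 ± 0.16, adjusted p = 3.05e-09), and at 9.66 and 10.14 on the CsA day 0 arrays. Bhlha15 was 2.41-fold higher (8.78 and 8.58 against 7.38 and 7.44), and 1 of its 2 dimmer probes was not called (-0.40, adjusted p = 0.138 over probes). Lower at CsA day 0 were Lefty1, Lefty2, Ccno, the growth factor gene Fgf17 (at least 3.06-fold lower at CsA day 3) and Lypd2 (3.32-fold lower). All of them were again lower at CsA day 3 than at untreated day 1.

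Genes that differed after deltaCnA was induced went both ways in CsA. In ideltaCnAES cells 366 genes (3.62%) differed between days 4 and 0 of Tc withdrawal, 2.75% of all genes higher and 0.871% lower at day 4. The samples used here hold no uninduced day 4 group, so deltaCnA and time without Tc cannot be told apart. Of the 278 higher at day 4, 105 (37.8%) were higher and 86 (30.9%) lower at CsA day 3 than at untreated day 1, and of the 88 lower at day 4, 27 were higher and 32 lower. The shares over all genes were 22.5% higher and 21.4% lower. Of those with the largest differences among the 278, Igf2, the fetal growth factor, was not called (7.29 and 7.55 against 7.35 and 7.67, -0.09 ± 0.23, adjusted p = 0.787), Col4a1 and Col4a2 were higher and Tceal5 and Abca14 were lower (-2.11, and at least 3.37-fold). Among the 88, Cbr3, a carbonyl reductase, was higher (0.74 ± 0.16), Pax6, an eye and brain factor, was not called (0.32 ± 0.22), and Zscan5b (-1.62 ± 0.19), Sall3 (-1.05 ± 0.20) and Lefty2 were lower.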

How the data were processed

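Total RNA was labelled as biotinylated cRNA, per the labels' protocols, and read on 18 arrays. The deposited table holds non-normalized probe intensity and a detection p-value for each array, per the file headers, and 31.15% to 35.24% of values lie below 0. The deposited log2 series matrix ranked probes as this table did on every array, and served as an alternative.

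Background was corrected from the detection p-values (normexp, offset 16), followed by quantile normalization and log2 (limma 3.58.1, R 4.3.3). Group means of all 9 groups were fitted with an intensity trend (9 residual degrees of freedom), and p-values were adjusted over 10099 genes. "At least" marks a bound, set by the lowest detected signal, for genes that 1 group lacked on 1 or both arrays. Of 46632 probes, 29976 have 1 gene symbol, 10 several and 16646 none. The brightest of 19435 kept probes stood for its gene. In 1496 called genes with another kept probe, another was called the same way in 860 and the opposite way in 78.

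The markers, 25 lists, comparisons and naming rule were chosen with earlier results of these data known. Named were the markers, the largest differences over all genes, in each list (up to 6 called), beyond the untreated days, along the course, and among genes changed by CsA at day 0 or between days 4 and 0 in ideltaCnAES cells. Other genes of a list were named after their values were seen. Results were recomputed under other scaling, filters, probes and arrays. The script was tested on simulated data. The number of arrays limits precision.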

Additional observations from a re-analysis of the deposited data

Results flagged for a closer look

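The change from day 1 to day 3 was itself tested for a difference between cells with and without CsA, an interaction that called 1214 of 10099 genes (12%). Of the 4 marker genes, 3 differed in this change by limma's test. The Klf4 change from day 1 to day 3 was -0.41 with CsA and -1.75 without, a difference of 1.34 ± 0.24 (adjusted p = 0.000580). The Pecam1 change was 0.79 with CsA and -1.46 without, a difference of 2.25 ± 0.23 (adjusted p = 7.21e-07). The Egr1 change was -3.39 with CsA and -0.51 without, a difference of -2.88 ± 0.37 (adjusted p = 1.25e-05). Egr1 was detected on 1 of 2 CsA day 3 arrays, so its change with CsA is a bound, at least 8.26-fold lower, and the fitted values of this gene are not exact sizes. For Fgf5 the changes were 2.01 and 1.86, and the difference of 0.15 was not called (adjusted p = 0.845).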

How the results depend on the processing

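With median scaling 2968 genes were called against untreated day 1 (1075 lower), 2480 against untreated day 3, 1724 against CsA day 0 and 1201 against CsA day 1. Then 464 and 471 genes lay above and below every untreated day, 526 risers and 200 fallers were higher, 101 and 420 lower, and CsA day 0 genes went 370 the same and 3 the opposite way (deltaCnA genes 55 and 38), the day 0 and deltaCnA classes being called anew under each setting. Without a detection filter 15269 genes lay within 2-fold, 6 CsA day 0 genes went the opposite way, and deltaCnA genes went 77 and 67. Rcan3 reversed when a gene's probes were averaged (-0.20, adjusted p = 0.193). The cause was not tested. The fit of only the 4 arrays called 4191 genes.

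Leaving out 1 of the 4 arrays gave 3229 to 3924 genes against untreated day 1, 6925 to 7401 within 2-fold, 3688 to 4649 against untreated day 0, 2808 to 4018 against day 3, 2066 to 3166 against CsA day 0 and 1448 to 2627 against CsA day 1. Genes above the untreated days numbered 577 to 874 and below 563 to 937. Risers higher numbered 649 to 767 and lower 158 to 219, fallers 184 to 314 and 646 to 754. CsA day 0 genes went the same way in 1007 to 1111 and the opposite way in 6 to 13, deltaCnA genes in 108 to 145 and 88 to 105. The interaction ranged from 0.99 to 1.69 for Klf4, 2.16 to 2.34 for Pecam1, -3.39 to -2.38 for Egr1 (fitted values only, as 1 CsA day 3 array did not detect it) and -0.46 to 0.76 for Fgf5.

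The 156 named genes tested include some that were not called, such as Klf4. Of the 156, 23 lost a call without CsA day 3 replicate 1. Calls were also lost by 16 and 10 without untreated day 1 replicates 2 and 1, and by 4 without CsA day 3 replicate 2. With median scaling 15 lost a call. The order of the 5 groups by number of called genes held in 11 of 13 alternatives. It did not hold where an untreated day 1 array was left out, which also enlarges the standard error against day 1. Replicates share numbers, but same-numbered arrays deviated together in 16 of 36 group pairs (r over 0.1, range -0.22 to 0.37, and 0.06 between the groups compared). They were not taken as pairs, since not every pair exceeded 0.1, and a batch shared by some groups was not tested. The fit with the replicate block called 4599 genes. A chip block was not run, as the headers used here name no chips. With 2 arrays a group, the lone array left is assumed to vary like the others, and a probe near background gives only a bound.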

Other observations

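Genes of antigen processing were split at CsA day 3 against untreated day 1. Of 10 tested, 5 were higher and 1 lower, with a median of 0.30, against 22.5% higher and 21.4% lower among all genes. Tap1, among the 5, passed the detection filter only through CsA day 3. The number higher was 3 without untreated day 1 replicate 1 or without CsA day 3 replicate 1. Psmb8, the immunoproteasome subunit described above, Tap2, a peptide transporter (6.68 and 6.65 against 5.18 and 5.46, 1.34 ± 0.20, adjusted p = 1.08e-05), and B2m, the light chain of class I molecules (9.05 and 8.85 against 7.85 and 7.99, 1.03 ± 0.16, adjusted p = 1.51e-05), were higher. Psmb10, another inducible proteasome subunit, was lower (9.32 and 9.48 against 10.69 and 10.84, -1.36 ± 0.15, adjusted p = 1.39e-07).

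Among 10 imprinted growth genes, 3 were higher and 1 lower, with a median of -0.08. For this list and those below, the shares over all genes were 22.5% higher and 21.4% lower. Igf2r, which clears IGF2, had means of 9.99 against 8.99 and was 2.00-fold higher (adjusted p = 1.95e-06). Grb10, an inhibitor of insulin receptor signalling, was higher (0.74 ± 0.11), as was Impact (0.80 ± 0.17), and Cdkn1c, an inhibitor of the cell cycle, was 2.19-fold lower (10.09 and 10.27 against 11.34 and 11.28, adjusted p = 5.35e-07). Of 10 cholesterol synthesis genes, Cyp51 and Msmo1, neighbouring steps after lanosterol, were higher (0.91 ± 0.14 and 0.63 ± 0.14), 0 were lower, and the median was 0.17. Of 10 p53 targets, 4 were higher and 0 lower, with a median of 0.26. Mdm2, the ligase that removes p53, was among them (12.45 and 12.17 against 11.70 and 11.61, 0.65 ± 0.12, adjusted p = 0.000144), and 2 and 1 were higher without untreated day 1 replicate 2 and CsA day 3 replicate 1. Of genes listed for the 2-cell embryo, Tcstv3, one of a family of close copies, was 2.96-fold higher (7.03 and 7.29 against 5.50 and 5.68, adjusted p = 0.000127), with untreated means of 5.71, 5.59 and 5.69, and Khdc3 was lower.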
